A study of Mus musculus with 9 samples.

Results

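The genes described here are 10 glycosyltransferases that build and cap the sugar chains of mucins and of the epithelial surface: St6galnac1, St6gal1, St3gal3, St3gal4, St3gal6, Fut2, Fut4, Gcnt1, Gcnt3 and C1galt1. All 10 were found among the 18193 genes of the array that had a probe set of their own symbol, and each was read by the probe set whose mean across all 9 arrays was highest. They were measured in intestinal epithelial cells of newborn mouse pups (postnatal day 0) on 9 arrays, 3 for each of 3 genotypes. Control pups were Tfr1fl/fl, with the gene of the transferrin receptor flanked by loxP sites. Knockout pups were Tfr1 IEC-KO, with the receptor deleted in intestinal epithelium. Rescue pups carried the same knockout plus 1 ROSA26 Tfr1R654A allele, a receptor whose R654A change strongly weakens transferrin binding. None of the pups was treated. Cells came from small intestine and proximal colon together, released with EDTA and passed through a mesh, and no sort is named. The labels name neither the driver of the deletion nor the pups' sex. Nor do they say whether pups were pooled for an array. The p-values thus rest on array-to-array spread, which may be partly technical.

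Mucins and many surface proteins carry O-linked chains that begin with N-acetylgalactosamine on serine or threonine. C1galt1 adds galactose to make core 1, Gcnt1 and Gcnt3 add a branch to make core 2, and sialyltransferases and fucosyltransferases cap the ends or, as St6galnac1 does, stop a chain early with sialic acid. In the gut these caps serve as ligands for microbes and lectins and help mucus resist degradation, and the balance between sialylated and fucosylated caps is known to shift from suckling to weaning.

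Levels are log2 RMA values, so a difference of 1 is a change of 2-fold. A gene was called changed at an adjusted p under 0.05 in limma's test over all 18193 genes. Errors after ± are limma's standard errors from 3 arrays per group. Arrays understate changes at low signal. A fold is therefore written as a lower bound ("at least") if the dimmer of both group means fell among the lowest 40% of genes in that group.

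The 9 arrays read as intestinal epithelium. Vil1, Epcam and Cdh1, of the brush border and of epithelial adhesion, lay at or above the 97.8th percentile of all genes in every array. The intestinal regulator Cdx2 lay at or above the 92nd. These markers were not all stable: in knockout Cdx2 was -0.74 ± 0.14 from control (adjusted p = 0.0107) and Cdh1 0.34 ± 0.10 (adjusted p = 0.0486). Of 11 enterocyte genes, Cdx2 among them, 1 was called higher in knockout and 3 lower. Their medians were -0.30, -0.10 and 0.03 from control in knockout replicates 1, 2 and 3. The knockout arrays differed from each other more than the others did, with correlations across genes of 0.951 to 0.985 against 0.994 to 0.996 for control and 0.987 to 0.990 for rescue. Transcripts of connective tissue moved with them. For 14 fibroblast genes, the median difference from control was 3.83, 3.22 and 0.30 (log2) in knockout replicates 1, 2 and 3, and 1.10, 0.51 and 0.53 in the rescue arrays in that order. Their summed linear level ran from 1692 to 2901 in control, from 3273 to 36139 in knockout and from 3457 to 5858 in rescue, and 3 of the 14 were called higher in knockout. Across the 9 arrays Col1a1 lay between the 50.5th and 94.4th percentile of all genes, Col3a1 between the 70.6th and 99.7th and Vim between the 44.7th and 97.4th. Goblet cell genes, 12 in the list, had medians 0.34 to 0.88 above control in knockout and 0.59 to 1.01 in rescue. Against control, 3 of the 12 were called higher in knockout and 2 of the 12 in rescue. Of all genes, 0.055% were called higher in rescue than in control. Hormone cell genes, 11 in the list, had medians 0.90 to 1.10 above control in knockout and 0.18 to 0.60 in rescue, with 7 of 11 called higher in knockout. For 6 Paneth cell genes the medians were 0.49, 0.82 and 0.93 in knockout replicates 1, 2 and 3 and 0.19 to 0.98 in rescue, with 2 of 6 called higher in knockout. For 5 mesothelium genes they were 1.11, 2.11 and 0.93 in knockout and 0.23 to 0.41 in rescue, with 3 of 5 called higher in knockout. Between rescue and knockout 0 of 12 goblet, 2 of 11 hormone cell, 3 of 6 Paneth and 1 of 5 mesothelium genes were called. Of all genes, 2.31% were called there. Between knockout and control, 2 of 5 ileum genes were also called higher. So were 1 of 9 endothelium, 1 of 7 neuron and glia, 1 of 6 stomach surface and 1 of 8 colon genes. Of 9 smooth muscle genes 0 were called, although the list's median spanned 0.15 to 3.28 above control across knockout arrays. Also 0 were called of 7 stem cell and 8 tuft cell genes. Of 9 leukocyte genes 1 was called higher and 2 lower. Over all genes, 5.29% were called higher and 8.77% lower. For Tfrc, the gene of Tfr1, 0 of 3 probe sets were called between knockout and control (limma over all probe sets, changes from -0.36 to 0.04), and 2 of 3 were called higher in rescue than in knockout. Where these probes lie relative to the deleted exons was not analysed here, so they do not test the deletion. The part of these other cell types in the results was not tested, apart from fits with the fibroblast mean as a covariate. Rescue arrays read the Y-linked Eif2s3y at 9.36 to 9.70, against at most 2.88 in the others, so in both comparisons with rescue the genotype and the sex of the pups cannot be told apart.

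RefSeq start sites on GRCm38.p6 were matched for 7 of the 10 genes, among them 4 of the 5 that changed in knockout. The 150 bases upstream of the first start of each of these 4 are shown because the first pair fell and the second pair rose. Capitals mark GGGCGG, the GC box bound by Sp1-type factors, read on either strand (CCGCCC on the other). The other motifs named were also counted on both strands.
St3gal3, chr4:118134947-118135096, minus strand: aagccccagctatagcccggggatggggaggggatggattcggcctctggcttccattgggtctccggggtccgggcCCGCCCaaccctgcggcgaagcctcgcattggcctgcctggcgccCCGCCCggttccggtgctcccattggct
St3gal4, chr9:35116865-35117014, minus strand: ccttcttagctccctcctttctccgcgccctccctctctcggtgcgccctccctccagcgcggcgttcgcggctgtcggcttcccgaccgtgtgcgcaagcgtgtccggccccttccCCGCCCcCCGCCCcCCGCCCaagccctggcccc
Fut4, chr9:14752123-14752272, minus strand: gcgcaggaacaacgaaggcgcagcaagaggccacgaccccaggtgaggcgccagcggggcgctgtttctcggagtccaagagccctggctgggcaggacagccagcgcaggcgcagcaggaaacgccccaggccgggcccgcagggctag
Gcnt1, chr19:17372845-17372994, minus strand: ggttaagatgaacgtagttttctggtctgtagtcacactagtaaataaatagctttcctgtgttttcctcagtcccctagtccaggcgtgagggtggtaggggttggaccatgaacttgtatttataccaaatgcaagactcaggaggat

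The stretch before St3gal3 held 2 GC boxes and that before St3gal4 held 3, while those before Fut4 and the first of 3 starts of Gcnt1 held 0. The boxes did not go with a fall in general: C1galt1 and the second start of St3gal6, neither gene called, also had 3 each. The first start of St3gal6 had 0. Over all 32851 RefSeq start windows, 28.6% of such stretches held a GC box. The base composition also differed: G and C made up 70.7%, 75.3% and 71.3% before St3gal3, St3gal4 and Fut4 and 44.0% before Gcnt1, against a median of 54.0%. TATAAA, the TATA box, had 1 match before Gcnt1, on the opposite strand (printed as tttata), 0 before the other 3 genes, and at least 1 in 7.57% of all stretches. ACGTG, the core of a hypoxia response element, occurred in none of the 4 and in 11.2% of all. The St3gal4 stretch overlaps the gene of a long noncoding RNA, 4930581F22Rik. With 4 genes these matches are descriptions of the sequence, and no binding was measured.

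Knockout was set against control to find transcripts that differ when gut epithelium lacks Tfr1. The chain-branching enzyme Gcnt1 and the fucosyltransferase Fut4 were higher in knockout cells, and 3 sialyltransferases, St6galnac1, St3gal3 and St3gal4, were lower. So 5 of 10 genes were called, 2 higher and 3 lower, where 14.1% of all genes were called (5.29% higher and 8.77% lower). The genes were chosen with results of these arrays known, so nothing is read from that share. Their median change was 0.27 (log2), against -0.04 over all genes. Arrays of both groups did not overlap for 6 of the 10, and for 32.4% of all genes.

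**Figure D1:**
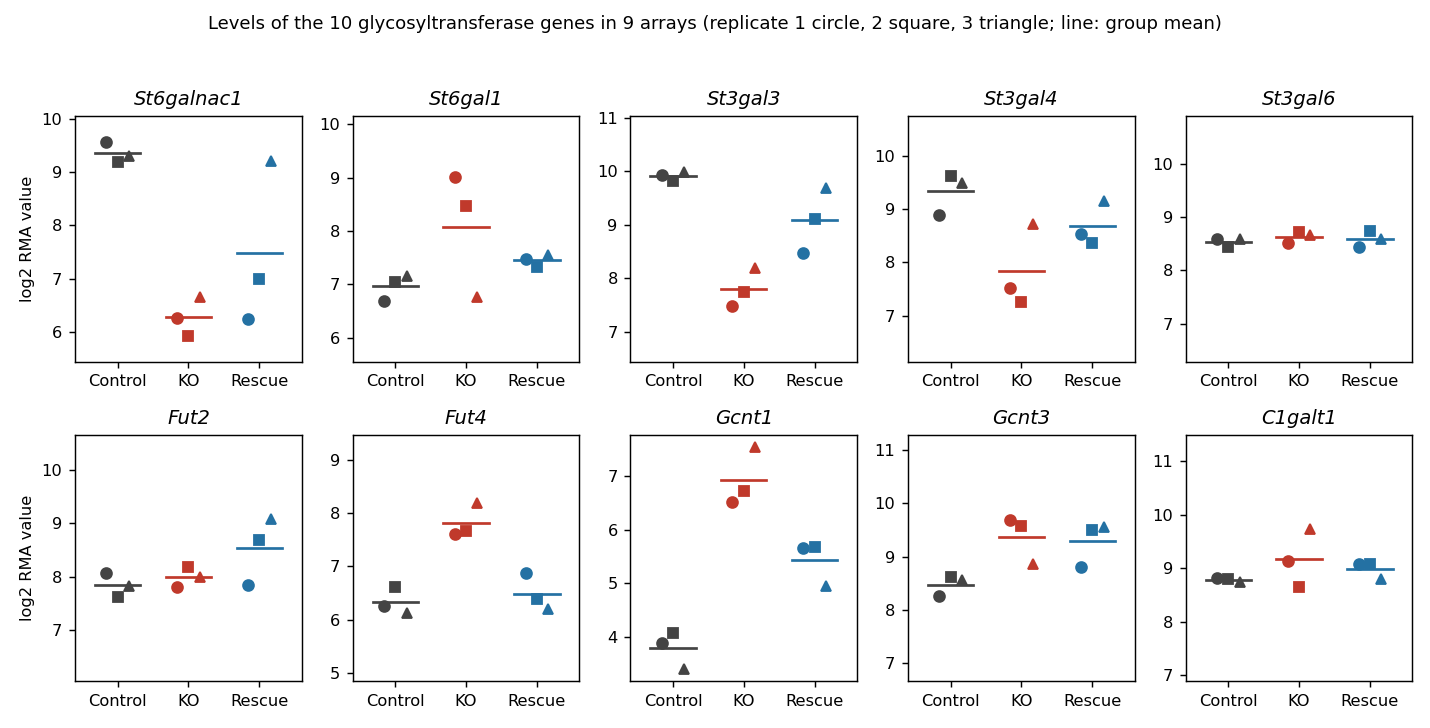
Log2 RMA value (vertical axis, each panel spanning an equal range) of each gene in the 3 control, 3 knockout (KO) and 3 rescue arrays; the symbol gives the replicate number and the line the group mean. Gcnt1 and Fut4 lie above control in all 3 knockout arrays, while St6galnac1, St3gal3 and St3gal4 lie below it.

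Among the enzymes that begin and branch the chain, Gcnt1, the core 2 enzyme of many cell types, read 3.88, 4.07 and 3.40 in control replicates 1, 2 and 3. In knockout the values were 6.53, 6.72 and 7.55, and in rescue 5.67, 5.68 and 4.94. The 3 groups formed 3 separate bands, with rescue between the others. In knockout it was 3.15 ± 0.31 above control (at least 8.88-fold, adjusted p = 9.9e-04), which ranks 52nd by size among all genes of that comparison. Control lay at the 7.99th percentile of control genes and knockout at the 49.8th of knockout genes. The call held when any 1 of the 9 arrays was left out (adjusted p at most 0.0079), with the fibroblast mean as a covariate, and when knockout replicate 3, the knockout array lowest in fibroblast transcripts, stood alone for its group. A second probe set, dim in every group, gave 0.44 ± 0.22 (adjusted p = 0.26, limma over all probe sets), and the mean of both gave 1.79, still called.

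Gcnt3, the mucin-type enzyme that makes core 2 and core 4 and is typical of goblet cells and enterocytes, read 8.26, 8.61 and 8.56 in control. In knockout the values were 9.68, 9.57 and 8.86, and in rescue 8.81, 9.50 and 9.55. Every knockout and every rescue array lay above every control array. The difference between knockout and control, 0.89 ± 0.26, missed the threshold by the probe set used (adjusted p = 0.0556). Its other 2 probe sets passed in limma's test over all probe sets, at 1.16 ± 0.16 (adjusted p = 0.0040) and 0.84 ± 0.15 (adjusted p = 0.0133). The probe set used passed without knockout replicate 3 (1.15, adjusted p = 0.0075) and without rescue replicate 1 (adjusted p = 0.0393). It fell short with the fibroblast covariate (0.36, adjusted p = 0.52), and with knockout replicate 3 alone the change was 0.38.

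C1galt1, the core 1 synthase, read 8.82, 8.79 and 8.75 in control. Knockout arrays gave 9.13, 8.65 and 9.73, and rescue arrays 9.09, 9.08 and 8.80. Knockout values lay on both sides of control, and the change of 0.38 ± 0.24 did not pass (adjusted p = 0.33, 95% interval -0.16 to 0.92). With the fibroblast covariate it was 0.94 (adjusted p = 0.0490), and with knockout replicate 3 alone 0.95. C1galt1c1, the chaperone that C1galt1 needs for activity, differed by -0.17 ± 0.11 (adjusted p = 0.32).

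Sialyltransferases gave the falls. St6galnac1, which puts sialic acid on the first sugar of the chain and forms sialyl-Tn, is a goblet cell enzyme. Its values were 9.56, 9.19 and 9.30 in control. Knockout arrays gave 6.26, 5.93 and 6.66, and rescue arrays 6.24, 6.998 and 9.21. All knockout arrays lay below all control arrays, while the rescue arrays ran from the knockout level to the control level. The gene was 3.06 lower in knockout (-3.06 ± 0.63, at least 8.36-fold, adjusted p = 0.0164), the 60th change by size among all genes. Without control replicate 1, 2 or 3 the change was -2.96, -3.14 and -3.09 with an adjusted p of 0.0641, 0.0533 and 0.0620, and with the fibroblast covariate it was -2.52 (adjusted p = 0.13). With knockout replicate 3 alone it was -2.69. A second probe set with its symbol read between 6.87 and 7.08 in all 9 arrays and did not differ past the threshold (0.03 ± 0.09, adjusted p = 0.88). The mean of both gave -1.52, still called.

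St3gal3, which adds sialic acid to terminal galactose, chiefly on type 1 chains, read 9.94, 9.82 and 9.99 in control. In knockout the values were 7.48, 7.73 and 8.18, and in rescue 8.48, 9.10 and 9.69. The 3 groups did not overlap. Knockout lay -2.12 ± 0.29 from control (4.33-fold lower, adjusted p = 0.0032). This call held in all 9 fits without 1 array and with the fibroblast mean in the model (adjusted p up to 0.0323). For knockout replicate 3 by itself the change was -1.73. Its second probe set gave -1.67 ± 0.25 (adjusted p = 0.0064, limma over all probe sets).

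St3gal4, which caps type 2 chains with sialic acid and takes part in making selectin ligands, read 8.90, 9.62 and 9.50 in control. In knockout the values were 7.53, 7.26 and 8.73, and in rescue 8.53, 8.37 and 9.15. All knockout arrays lay below all control arrays, replicate 3 close to the lowest of them. The gene was 2.83-fold lower in knockout (-1.50 ± 0.39, adjusted p = 0.0368). The call remained without knockout replicate 3 or rescue replicate 3 and was lost without any other array, at -1.72 without control replicate 1, -1.36 and -1.42 without 2 and 3, -1.35 and -1.21 without knockout replicates 1 and 2, and -1.50 without rescue replicate 1 or 2 (adjusted p up to 0.12). With the fibroblast covariate the change was -0.66 (adjusted p = 0.39), and with knockout replicate 3 alone -0.61.

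St3gal6, another enzyme that caps type 2 chains with sialic acid, lay between 8.44 and 8.74 in all 9 arrays by the probe set used, with knockout 0.09 ± 0.11 from control (adjusted p = 0.64, 95% interval -0.16 to 0.34). Another 3 of its 5 probe sets gave larger differences of 0.45 to 0.55, none past the threshold, and the mean over its probe sets was called at 0.35 (adjusted p = 0.0444). With the fibroblast covariate the probe set used gave 0.17 (adjusted p = 0.55). St6gal1, which adds sialic acid to the ends of N-linked chains and is known as abundant in the suckling gut, read 6.69, 7.05 and 7.16 in control. In knockout the values were 9.01, 8.47 and 6.77, and in rescue 7.47, 7.33 and 7.55. Knockout replicates 1 and 2, the arrays with the most fibroblast transcripts, were the 2 high ones, and replicate 3 lay among the controls. The change of 1.11 ± 0.48 did not pass (adjusted p = 0.16). It was 1.77 without knockout replicate 3 (adjusted p = 5.9e-04), -0.42 with the fibroblast covariate (adjusted p = 0.13) and -0.20 with replicate 3 alone.

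The fucosyltransferases differed from each other. Fut4, which makes the Lewis x group, read 6.26, 6.62 and 6.12 in control. Knockout arrays gave 7.60, 7.67 and 8.19, and rescue arrays 6.87, 6.40 and 6.21. Knockout stood above both other groups, which overlapped. The rise was 1.49 ± 0.22 over control (2.80-fold, adjusted p = 0.0050). It held when any 1 of the 9 arrays was left out (adjusted p at most 0.0287) and with the fibroblast mean in the model. For knockout replicate 3 by itself the rise was 1.86. A second, dim probe set gave -0.10 ± 0.12 (adjusted p = 0.71), and the mean of both gave 0.69, still called. Fut2, the secretor enzyme that ends chains with the fucose of blood group H, read 8.08, 7.61 and 7.83 in control. Knockout arrays gave 7.80, 8.19 and 7.99, and rescue arrays 7.84, 8.68 and 9.08. Control and knockout overlapped, with a difference of 0.15 ± 0.29 (adjusted p = 0.79, 95% interval -0.50 to 0.80), and 0.32 with the fibroblast covariate (adjusted p = 0.71).

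**Figure D2:**
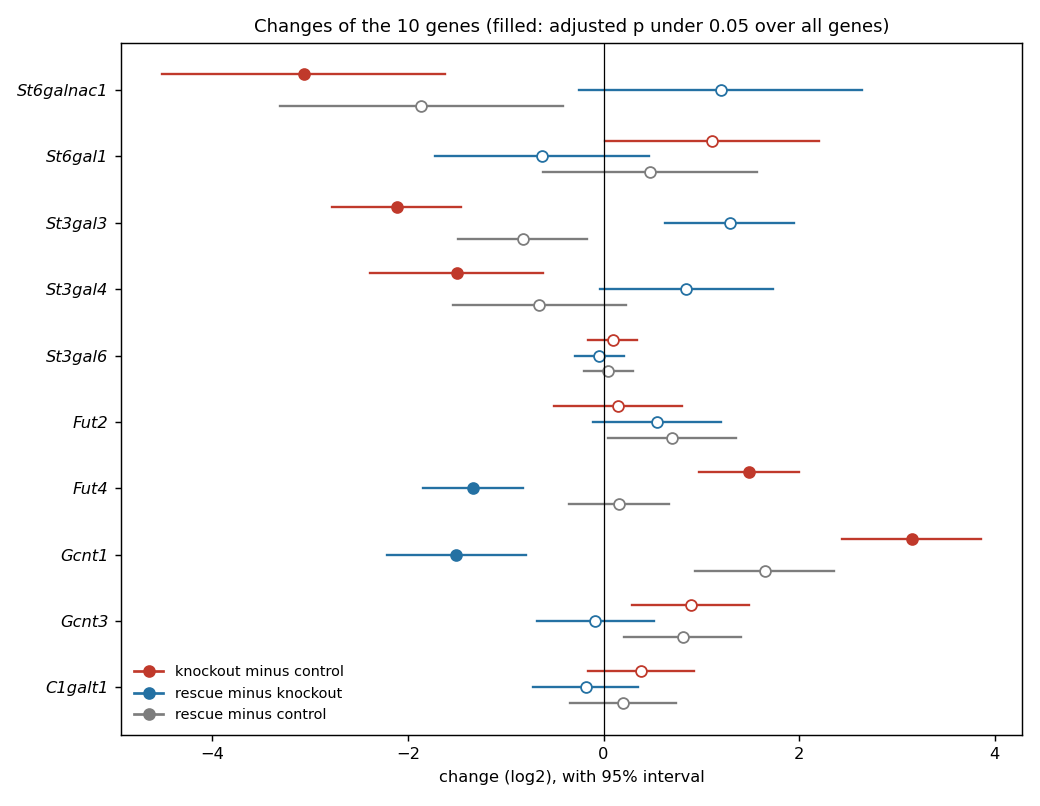
Change of each gene (log2, horizontal axis) in the 3 comparisons, with 95% intervals; filled points passed limma's test over all genes. Knockout minus control is filled for 5 genes, rescue minus knockout for Fut4 and Gcnt1, and rescue minus control for none.

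**Figure D3:**
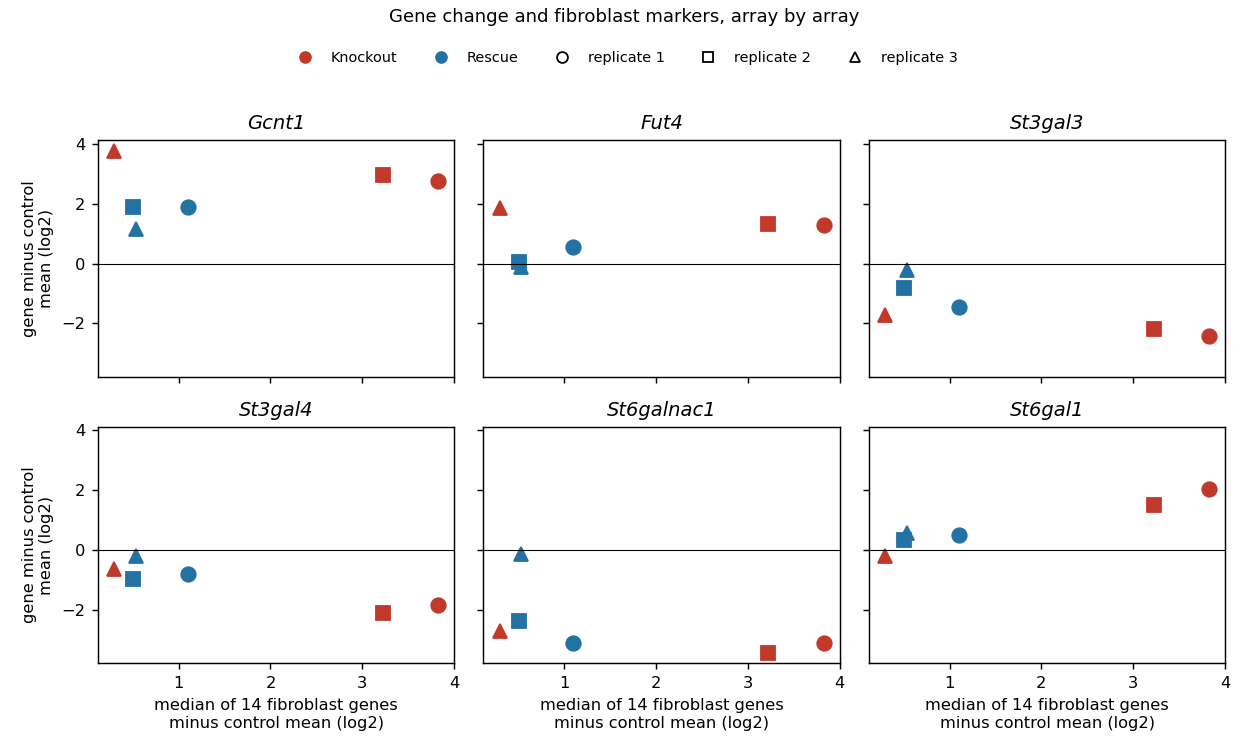
Difference of 6 of the genes from their control mean (log2, vertical axis) against the median difference of 14 fibroblast genes (log2, horizontal axis) in each knockout and rescue array. Gcnt1 and Fut4 are highest in knockout replicate 3, at the low end of the fibroblast axis, while St6gal1 is highest in the 2 arrays at its high end.

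The called genes can be read array by array beside the fibroblast transcripts. In knockout replicate 3, where the fibroblast median was 0.30 above control, Gcnt1 was 3.76 and Fut4 1.86 above their control means, more than in replicates 1 and 2 (2.75 and 2.94 for Gcnt1, 1.27 and 1.33 for Fut4). In that array St6galnac1 was -2.69 and St3gal3 -1.73 from control, against -3.09 and -3.41, and -2.43 and -2.18, in replicates 1 and 2. St3gal4 was -0.61 from control there, against -1.81 and -2.08. Replicate 3 was not low in every other cell type: its hormone cell median of 1.10 and Paneth cell median of 0.93 were the highest of the knockout arrays, as for Gcnt1 and Fut4, and the mesothelium median was 0.93. Their part in the values of these genes was not tested. In bulk RNA, fewer cells of a type and less RNA per cell cannot be told apart.

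**Figure D4:**
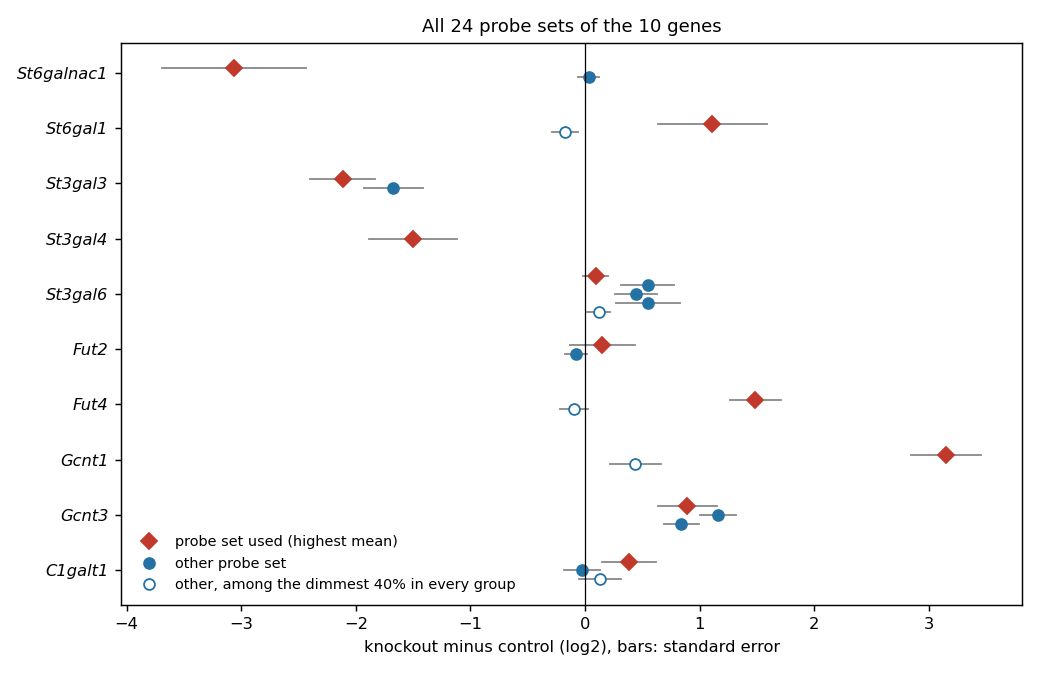
Knockout minus control (log2, horizontal axis, bars are standard errors) for all 24 probe sets of the 10 genes; diamonds are the probe sets used and open circles those among the dimmest 40% in every group. The probe sets of St3gal3 and of Gcnt3 lie on the same side of 0, while the second probe sets of St6galnac1 and Fut4 lie near 0.

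Rescue was set against knockout to see what the R654A receptor changes in cells without the normal receptor. Both genes that were higher in knockout were lower again in rescue: Fut4 was -1.33 ± 0.22 from knockout (2.51-fold lower, adjusted p = 0.0262) and Gcnt1 -1.50 ± 0.31 (at least 2.84-fold lower, adjusted p = 0.0491). So 2 of 10 genes were called lower and 0 higher, where 2.31% of all genes were called (1.23% higher and 1.08% lower). An unadjusted p under 0.05 was found for 3 of 10 and for 3436 of all 18193 genes. The groups did not overlap for 3 of 10, and for 18.1% of all genes. Both calls were close to the threshold. That of Gcnt1 was kept only without knockout replicate 3, among the 9 fits without 1 array, and was otherwise between -1.26 and -1.71 (adjusted p up to 0.16). That of Fut4 was lost without control replicate 1 or 3 (both -1.33), knockout replicate 2 (-1.41) or rescue replicate 2 or 3 (-1.28 and -1.19), with an adjusted p up to 0.0993. Averaged over both probe sets of each gene, the changes were -0.56 for Fut4 and -0.90 for Gcnt1, neither called (adjusted p = 0.11 for both).

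The 3 sialyltransferases that were lower in knockout had higher means in rescue, with no call. When 1 array was left out, the difference ran from 0.99 to 1.60 for St3gal3. The range was 0.56 to 1.29 for St3gal4 and 0.33 to 1.82 for St6galnac1. For St3gal3 the difference was 1.29 ± 0.29 (2.44-fold, adjusted p = 0.0608), with no overlap between the groups, and it passed without knockout replicate 3 (1.48, adjusted p = 0.0143) or rescue replicate 1 (1.60, adjusted p = 0.0353). It was 0.93 with the fibroblast covariate (adjusted p = 0.13) and 0.91 with knockout replicate 3 alone. For St3gal4 it was 0.85 ± 0.39 (adjusted p = 0.28), at 1.29 without knockout replicate 3 (adjusted p = 0.0188) and 0.56 without knockout replicate 2 (adjusted p = 0.51). The covariate gave 0.25 (adjusted p = 0.76) and knockout replicate 3 alone -0.04. For St6galnac1 it was 1.20 ± 0.63 (adjusted p = 0.35, 95% interval -0.25 to 2.64), with a standard deviation among rescue arrays of 1.54, against 0.36 in knockout. Rescue replicate 1, at 6.24, lay below the knockout mean of 6.28. Without rescue replicate 3 the difference was 0.33 (adjusted p = 0.65), and without rescue replicate 1 it was 1.82 (adjusted p = 0.18). Fut2 was 0.55 ± 0.29 higher (adjusted p = 0.34), at 0.27 without rescue replicate 3 and 0.89 without rescue replicate 1. St6gal1 was -0.63 ± 0.48 from knockout (adjusted p = 0.53), at -0.17 without knockout replicate 1 and -1.29, with a call, without knockout replicate 3 (adjusted p = 0.0043). The remaining genes, Gcnt3, C1galt1 and St3gal6, differed by -0.18 to -0.04, with adjusted p from 0.74 to 0.90. For Gcnt3 the 95% interval was -0.68 to 0.51. With knockout replicate 3 alone, Gcnt3, C1galt1 and St3gal6 differed by 0.43, -0.74 and -0.07.

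Rescue arrays were not alike. In rescue replicate 3, St6galnac1 was -0.14, St3gal3 -0.22 and St3gal4 -0.19 from the control mean, and in replicate 1 the same genes were -3.11, -1.44 and -0.81 from it. Gcnt1 was also nearest to control in replicate 3, at 1.16 above it, while Fut4 was nearest in replicate 2, at 0.06. Fut2 went the other way, 0.00 from control in replicate 1 and 1.24 above it in replicate 3. The fibroblast median was 1.10 above control in replicate 1 and 0.53 in replicate 3, and the goblet median 0.59 and 1.01. Some other lists differed more between replicates 1 and 3. Their medians from control were -0.08 and 1.59 for pancreas genes, -0.17 and 0.93 for stem cell genes and 0.19 and 0.98 for Paneth cell genes. The part of these cell types in the differences was not tested.

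The comparison of rescue with control asks what remains of the difference when the R654A receptor is present. None of the 10 genes passed limma's test, where 0.126% of all genes were called (0.055% higher and 0.0715% lower). An unadjusted p under 0.05 was found for 5 of the 10 and for 1205 of all 18193 genes. Gcnt1 lay highest above control, at 1.65 ± 0.31 (at least 3.13-fold, adjusted p = 0.13), with all 3 rescue arrays above all 3 controls. It passed without knockout replicate 3, which enters through the shared estimate of spread (adjusted p = 0.0291). St6galnac1 was -1.86 ± 0.63 from control (adjusted p = 0.53), and -2.73 without rescue replicate 3, with a call (adjusted p = 0.0311). St3gal3 was -0.83 ± 0.29 and St3gal4 -0.66 ± 0.39 from it (adjusted p = 0.54 and 0.96). Gcnt3 was 0.81 ± 0.26 and Fut2 0.70 ± 0.29 above it (adjusted p = 0.49 and 0.70), and Fut4 0.16 ± 0.22 (adjusted p = 1.0, 95% interval -0.35 to 0.67). The groups did not overlap for 4 of 10 genes, St6gal1, St3gal3, Gcnt1 and Gcnt3, and for 16.6% of all genes. The 3 comparisons share arrays, so their values stand side by side and are not independent of each other.

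Beyond these 10 genes, 112 others of 124 listed for glycan synthesis were measured, in 9 lists by step. Between knockout and control, 9 were higher and 5 lower, which makes 12.5% called, near the 14.1% of all genes. The median change was 0.00 against -0.04 over all genes. The largest fall among the 112 was in another sialyltransferase, St3gal1, which caps core 1 with sialic acid. It read 10.71, 10.86 and 11.13 in control. Knockout arrays gave 7.63, 6.89 and 8.32, and rescue arrays 9.10, 8.96 and 10.34. The 3 groups did not overlap. The fall of 3.28 (-3.28 ± 0.43, 9.74-fold, adjusted p = 0.0027) held in all 9 fits without 1 array, and the mean of its probe sets gave -1.72, still called. Of the 15 other sialyltransferases 1 was lower and 1 higher, the latter being the ganglioside enzyme St8sia1 (0.81 ± 0.23, adjusted p = 0.0496), whose call was kept only without knockout replicate 3 among fits that left 1 array out (adjusted p otherwise at most 0.15). The covariate brought St8sia1 to 0.17 (adjusted p = 0.61), and the mean of its probe sets was 0.22 (adjusted p = 0.19).

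**Figure D5:**
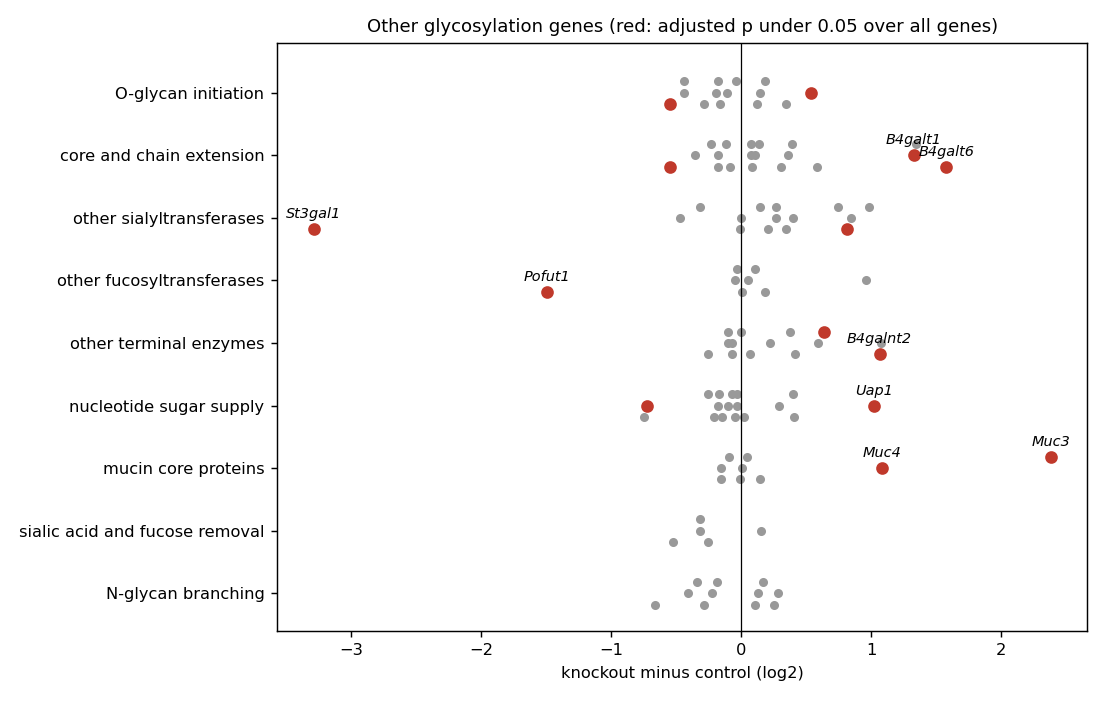
Knockout minus control (log2, horizontal axis) of the 112 other glycosylation genes measured, by list; red points passed limma's test over all genes and those beyond a change of 1 are named. St3gal1 and Pofut1 lie farthest below 0, and Muc3 farthest above it.

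Of 19 genes that extend the chain 2 rose and 1 fell. B4galt1, which adds galactose to build lactosamine, read 8.79, 8.09 and 8.68 in control. Knockout arrays gave 9.82, 9.75 and 9.97, and rescue arrays 8.51, 8.62 and 8.71. Knockout stood above both other groups. It was 1.33 ± 0.18 above control (2.51-fold, adjusted p = 0.0029), and rescue was -1.24 ± 0.18 from knockout (2.35-fold lower, adjusted p = 0.0132). The first call held in all 9 fits without 1 array, and the second was lost without rescue replicate 2 (-1.24, adjusted p = 0.0577) or 3 (-1.28, adjusted p = 0.0513). B4galt6, an enzyme of lactosylceramide synthesis, rose 2.99-fold (adjusted p = 0.0134), and B3galt4, which acts on gangliosides, fell 1.46-fold (adjusted p = 0.0323). The call of B4galt6 was lost without control replicate 1 or 3 (adjusted p up to 0.0618). That of B3galt4 was kept only without knockout replicate 3 and rescue replicates 1 and 3, and otherwise reached an adjusted p of 0.11. With the fibroblast covariate B4galt6 was 1.51 (adjusted p = 0.0799) and B3galt4 -0.23 (adjusted p = 0.34), neither called.

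Of 8 other fucosyltransferases 1 fell. Pofut1, which puts fucose on Notch receptors, was -1.49 ± 0.18 from control in knockout (2.81-fold lower, adjusted p = 0.0021) and 0.97 ± 0.18 higher in rescue than in knockout (1.97-fold, adjusted p = 0.0352). Among 14 enzymes that start O-linked chains Galnt18 rose at least 1.45-fold and Galnt11 fell 1.46-fold (adjusted p = 0.0494 and 0.0493). Of 14 other terminal enzymes 2 rose: B4galnt2, which makes the Sda antigen of the gut, 2.09-fold (adjusted p = 0.0109), and the sulfotransferase Chst4 1.56-fold (adjusted p = 0.0157). In the supply of nucleotide sugars, Uap1, which makes UDP-N-acetylglucosamine, rose 2.03-fold and Nanp, which frees sialic acid from its phosphate, fell 1.65-fold (adjusted p = 0.0442 and 0.0329), and the other 15 of 17 did not pass. None of 5 genes for removal of sialic acid and fucose and none of 11 for branching of N-linked chains passed in limma's test. An unadjusted p under 0.05 between knockout and control was found for 2 in each list and for 5485 of all 18193 genes. Several of these calls were lost when 1 array was left out, at times with the change nearly the same. For Chst4 the change was 0.63, 0.64 and 0.64 without control replicate 1, 2 or 3, against 0.64 with all 9 arrays. B4galnt2 lost its call without control replicate 3 (adjusted p = 0.0535), and Chst4 without any 1 control array (adjusted p up to 0.0626). Galnt11 and Galnt18 each kept theirs only without knockout replicate 3, and otherwise reached 0.16 and 0.15. Uap1 kept its call only without knockout replicate 3 or rescue replicate 1 (otherwise up to 0.14). Nanp lost its call without any 1 control array, knockout replicate 1 or rescue replicate 3 (up to 0.12). The fibroblast covariate also ended 5 of these calls: Uap1 was 0.43 (adjusted p = 0.44), Galnt11 -0.26 (0.44), Galnt18 0.33 (0.35), Nanp -0.54 (0.23) and Chst4 0.64 (0.0737). With it B4galnt2 was 1.46 and Pofut1 -1.39, both still called. The mean of its probe sets gave -0.94 for Pofut1, still called, and 0.63 for Uap1 (adjusted p = 0.0569) and -0.35 for Galnt11 (adjusted p = 0.0834), neither called.

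Of 9 mucin core proteins, the backbones of these chains, 2 rose, 0 fell and 7 did not pass, with a median of 0.00. Muc3, a membrane mucin of enterocytes, read 10.56, 9.59 and 10.32 in control. Knockout arrays gave 12.12, 12.41 and 13.08, and rescue arrays 11.56, 11.25 and 10.29. Knockout stood above both other groups, and the rise of 2.38 ± 0.39 (5.21-fold, adjusted p = 0.0066) held in all 9 fits without 1 array. Muc4, another membrane mucin, rose at least 2.12-fold (adjusted p = 0.0126), a call lost without control replicate 2 (1.06) or 3 (1.09, adjusted p up to 0.0532), with the fibroblast covariate (0.51, adjusted p = 0.0941) and with the mean of its probe sets (0.29, adjusted p = 0.0547). Its change was -0.06 when probe sets ending in _s_at or _x_at were left out. Muc2, the secreted goblet cell mucin, read 12.24, 10.91 and 11.68 in control. Knockout arrays gave 11.41, 11.47 and 12.09, and rescue arrays 12.36, 12.39 and 12.75. All rescue arrays lay above all others. Knockout differed from control by 0.05 ± 0.32 (adjusted p = 0.95), and rescue from knockout by 0.84 ± 0.32 (adjusted p = 0.21).

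In the comparison of rescue with knockout 1 of the 112 genes was called higher, Pofut1, and 1 lower, B4galt1. That is 1.79%, near the 2.31% of all genes, and the median was 0.00. Between rescue and control 0 of 112 passed limma's test, with 9 at an unadjusted p under 0.05, against 1205 of all 18193 genes. When 1 array was left out, Pofut1 stayed called between rescue and knockout only without knockout replicate 3, and the adjusted p of the other 8 fits reached 0.0935.

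For each called gene, the 3 genes of the array with the most similar pattern were found by the root mean square difference over 9 arrays, after each gene was centred on its mean. St6galnac1 was nearest to Myorg, a glycosidase (0.45), Tert, the telomerase subunit (0.50), and St3gal1 (0.55). St3gal3 was nearest to Spsb4 (0.16), the myosin Myo7a (0.18) and Naip5 (0.19), and St3gal4 to Cmbl (0.22), the amino acid transporter Slc7a8 (0.24) and the peroxisomal enzyme Ehhadh (0.24). Fut4 was nearest to Capg, which caps actin filaments (0.21), Ankrd22 (0.22) and the phosphomannomutase Pmm1 (0.22). Gcnt1 was nearest to Zfp37 (0.28), the membrane protein Tm4sf4 (0.30) and Cpe, a carboxypeptidase of hormone granules (0.34). Among the 10 genes themselves, St3gal3 and St3gal4 differed by 0.45 and St6galnac1 and St3gal3 by 0.68. These are descriptions over arrays that share their group differences.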

How the data were processed

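RNA of 9 arrays was labelled and hybridised, per the labels' protocols, and the authors deposited log2 RMA values for 45101 probe sets, with array medians from 5.93 to 6.00. The submitters' processing notes name RMA and Partek 6.5. Of further steps before deposit, none is given in the sources used here. Values were used as deposited. Probe sets with 1 symbol in the 2016 platform annotation (34945, against 932 with several and 9211 with none) gave 18193 genes, each taken from its brightest probe set on average. Of the 10 genes, 9 had more than 1 probe set (24 in all). The 9 arrays entered a limma 3.58.1 model of 3 group means (R 4.3.3 with the data.table package, version 1.17.8), with two-sided tests, Benjamini-Hochberg adjustment over all genes and 95% intervals, and was tested on simulated data. The number of arrays limits the precision: the median standard error was 0.15 (log2).

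The 10 genes, 9 glycosylation lists and 19 marker lists were chosen with earlier results of these data known. Named genes were the 10, up to 4 called genes per glycosylation list with the smallest p between knockout and control and up to 2 between rescue and knockout, the 3 nearest in pattern to each called gene, and Muc2, C1galt1c1 and Tfrc. Alternatives changed the samples fitted, probe set choice, dim-gene filter, scaling, variance model, array weights, fibroblast covariate and replicate block, or left out arrays. Promoter sequences are RefSeq's, on GRCm38.p6. Of 36 pairs of arrays, 0 were identical.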

Additional observations from a re-analysis of the deposited data

How the results depend on the processing

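The replicate numbers of the titles gave no clear pairing of the arrays. Of 9 correlations of deviations between same-numbered arrays, 2 were over 0.1, and 4 of 18 best matches fell on the same number. The 2 were 0.40 for knockout and rescue replicate 1 and 0.34 for control and knockout replicate 2, and the lowest was -0.22. The knockout arrays differed widely from each other, so these values cannot settle whether the numbers mark pairs. With the replicate block 2404, 257 and 12 genes were called between knockout and control, rescue and knockout, and rescue and control, against 2559, 420 and 23. Of the 10 genes, the replicate block gave 1 higher and 0 lower in rescue against knockout: St3gal3 passed (adjusted p = 0.0429), and Fut4 (0.0654) and Gcnt1 (0.0926) did not. It changed no other call of the 10, and of the other named genes Galnt18 (0.0741), B3galt4 (0.0521) and Uap1 (0.0582) lost theirs between knockout and control.

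Between knockout and control the count over all genes was 6395 with array weights and 1655 with only the 2 groups compared, and 936 to 4998 without 1 array. The genes called higher were 4 with the mean of all probe sets, 4 with array weights, and 2 to 4 without 1 array. Those called lower were 1 with the fibroblast covariate and 1 to 3 without 1 array. St6gal1 turned to -0.42 with the covariate and -0.20 with replicate 3 alone, and Muc4 to -0.056 without probe sets ending in _s_at or _x_at.

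Between rescue and knockout 2453 genes passed with array weights, 1016 with the fibroblast covariate, 1096 with replicate 3 alone, 30 with only the 2 groups, and 105 to 2793 without 1 array. Of the 10 genes, 1 was higher without the dimmest 40%, 2 with array weights and 0 to 2 without 1 array. Lower were 0 with the mean of all probe sets, 1 without the dimmest 40% (a filter that removes Gcnt1, so 9 were tested), 1 with quantile normalization, 1 with trend and robust eBayes, 0 with only the 2 groups, and 0 to 3 without 1 array. St6gal1 turned to 0.45 with the covariate and 0.68 with replicate 3 alone, St3gal4 to -0.042 with replicate 3 alone, and Gcnt3 to 0.29 with the covariate and 0.43 with replicate 3 alone. C1galt1 turned to 0.22 with array weights. Without 1 array St3gal6 ran from -0.12 to 0.032, Gcnt3 from -0.34 to 0.16 and C1galt1 from -0.45 to 0.098.

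Between rescue and control 15 genes passed with quantile normalization, 14 with trend and robust eBayes and 355 with array weights. The count was 108 with the fibroblast covariate, 149 with only the 2 groups, and 2 to 136 without 1 array. Of the 10 genes, 1 was higher with array weights, the covariate or only the 2 groups, Gcnt1 in each. Without 1 array 0 to 1 were higher and 0 to 1 lower. Without 1 array St3gal6 ran from -0.024 to 0.13 and Fut4 from -0.034 to 0.30. The cause of these shifts was not tested. Fits without an array or a group also lose it from the estimate of spread. Among fits without 1 array, the highest count over all genes in each comparison came without knockout replicate 3. Array weights gave knockout replicate 3 the lowest weight, 0.17.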
